A study of Sus scrofa with 18 samples.

Results

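The livers compared here came from gilts, that is female piglets, that either suckled the sow or were reared on a commercial infant formula made from cow's milk. The comparison rests on 6 of the 18 arrays of the series, chosen by sex and diet: 3 RNA pools of gilts given milk formula and 3 RNA pools of gilts that suckled. Formula feeding began at day 2 of life and livers were taken at day 21. No genotype, strain or other agent is named for either group. The series also holds 3 pools of gilts on a soy formula and the same 3 diets in boars, and a question of the study is how the early diet bears on gene expression in the neonatal liver. Each array carried the RNA of 1 pool, and the number of animals in a pool is not given in the sources used here. P-values therefore measure the spread between pools.

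Hepcidin, the peptide encoded by HAMP, is the liver hormone that limits the release of iron into blood. Hepatocytes raise it when iron is plentiful, through bone morphogenetic protein (BMP) signalling and SMAD factors, and the transferrin receptor made from TFRC is kept low when cells hold much iron. The liver also makes cholesterol from acetyl-CoA, and when sterols run short the transcription factor SREBP2, made from SREBF2, switches on the whole series of synthesis enzymes together with sterol uptake. Its relative SREBP1, made from SREBF1, drives the making of fatty acids. The neonatal liver further disposes of amino nitrogen through the urea cycle and makes glucose from amino acids.

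The 6 arrays were closely alike within each diet. The correlation between arrays ran from 0.975 to 0.983 among suckled gilts, from 0.975 to 0.980 among gilts on milk formula and from 0.957 to 0.975 between the diets. No array stood apart, and the median deposited ratio was between 0.309 and 0.311 on every one. The median of the residual SD over probe sets was 0.134 on the log2 scale, and precision is limited by having 3 arrays per diet. Control transcripts added during array processing overlapped between the diets, although their geometric mean ratio was 0.254 on milk formula replicate 1 and 0.496 on replicate 2. The array's own Gapdh and actin control probe sets were mostly higher on milk formula, for example by 0.42 for the Gapdh probe set of the 3' end and by 0.67 for that of actin.

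Milk formula changed the level of 120 probe sets of 23935 tested (0.501%). A probe set or gene is said to have changed, or to be called, where its adjusted p in limma was under 0.05, and every difference is milk formula minus sow milk on the log2 scale. Of the called probe sets 71 were higher (0.297%) and 49 were lower (0.205%). In all 120 the groups did not overlap, against 14.3% of all probe sets. That is no separate support, since the calls rest on the same values. Which direction held more calls depended on the setting: 85 were higher and 95 lower with trended variances, 81 and 96 with the 9 gilt arrays in the fit, and 64 and 75 without milk formula replicate 1. With each gene read from 1 probe set, 63 of 6765 genes changed (0.931%), with 34 higher (0.503%) and 29 lower (0.429%). At an unadjusted p under 0.05 there were 2434 probe sets (10.2%). The median difference over all genes was -0.0041. At least 2-fold changes made up 50 of the 71 higher and 23 of the 49 lower probe sets.

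**Figure D1:**
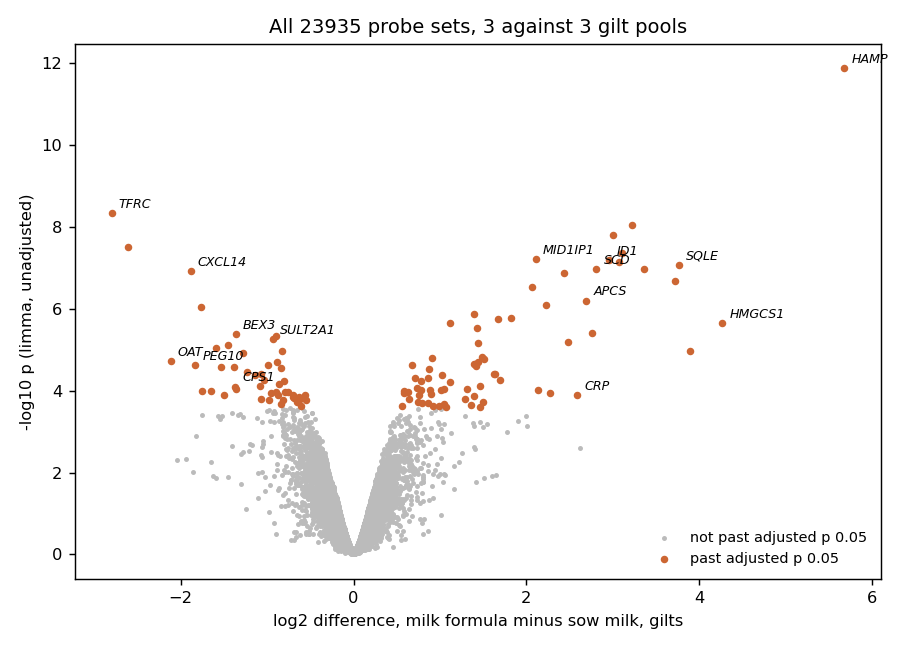
Each point is 1 of 23935 probe sets, with the log2 difference between milk formula and sow milk in gilts on the x axis and the unadjusted limma p on a -log10 scale on the y axis (3 pools per diet). The 120 probe sets past the threshold are coloured. HAMP lies far from all others at 5.68, and TFRC is the largest fall of a named gene at -2.80.

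HAMP had the largest change of any probe set. Its ratio was 0.0376, 0.0424 and 0.0436 in the suckled gilts and 1.98, 2.15 and 2.18 in the gilts on milk formula. The 3 formula pools lay close together and far above the 3 suckled pools. The difference was 5.68 (SE 0.10, adjusted p = 3.26e-08), which is a 51.1-fold rise. TFRC, which imports iron bound to transferrin, went the other way. The TFRC ratio was 5.35, 6.31 and 7.32 on sow milk and 0.917, 0.935 and 0.858 on milk formula. Every formula pool was several-fold below every suckled pool, and the fall of -2.80 (SE 0.12, adjusted p = 5.58e-05) was the largest of any named gene. In bulk liver, fewer cells of a type and less RNA per cell cannot be told apart, for this and all later results.

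The other iron genes did not change at this threshold. Of 13 measured genes of iron uptake, storage and export, HAMP rose, TFRC fell and 11 were not called, where 0.931% of all genes were called. The median of the list was -0.09. In 4 of the 13 the formula pools were all above the suckled pools and in 4 all below, against 8.29% and 9.71% of all genes. FTL and FTH1 encode the light and heavy chains of ferritin, the iron store. FTL was at 2.53, 2.31 and 2.88 on sow milk and at 2.56, 1.86 and 2.38 on milk formula, so its groups overlapped (-0.19, SE 0.14). FTH1 differed by -0.09 (SE 0.09). NCOA4, the receptor that sends ferritin to be broken down, differed by 0.57 (SE 0.14, adjusted p = 0.177). ACO1, an iron-responsive regulator of mRNAs, differed by 0.40 and SLC11A2, which moves iron out of endosomes, by -0.45, and neither was called. Under all 15 alternatives run for this list the number of called members was 2. SCARA5, a receptor that can bind ferritin and is not on the list, fell by 0.86 (SE 0.12, adjusted p = 0.0255). The SCARA5 call held in 8 of 16 alternatives and was lost in every single-array omission but that of milk formula replicate 3 (adjusted p 0.0588 to 0.1302).

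ID1, a direct target of BMP signalling in the liver, was the single called member of 11 measured genes of the BMP and SMAD pathway. Its ratio was 0.353, 0.561 and 0.341 on sow milk and 3.10, 3.20 and 3.18 on milk formula. The formula pools were nearly identical to each other and the groups did not overlap, with a rise of 2.96 (SE 0.18, adjusted p = 0.000195). The related ID2, ID3 and ID4, which encode the same kind of inhibitor of helix-loop-helix factors, differed by 0.38, 0.32 and 0.16 and were not called. ID2 had low ratios, at 0.189, 0.18 and 0.197 on sow milk and 0.232, 0.23 and 0.278 on milk formula. ID3 was at 1.278, 1.04 and 1.27 against 1.583, 1.382 and 1.501. Of the 11 genes 3 had a median ratio of 1 over all arrays of the series, against 12 of 13 iron genes. A change in members with low ratios, such as ID2, may therefore be missed. BMPR1A and ACVR1, receptors of the pathway, differed by 0.04 and -0.07, and SMAD1 and SMAD4 both by 0.13. The median of the list was 0.13, with 1 of 11 called where 0.931% of all genes were called. In 3 of the 11 the formula pools were all above the suckled pools, where 8.29% of all genes did so.

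**Figure D2:**
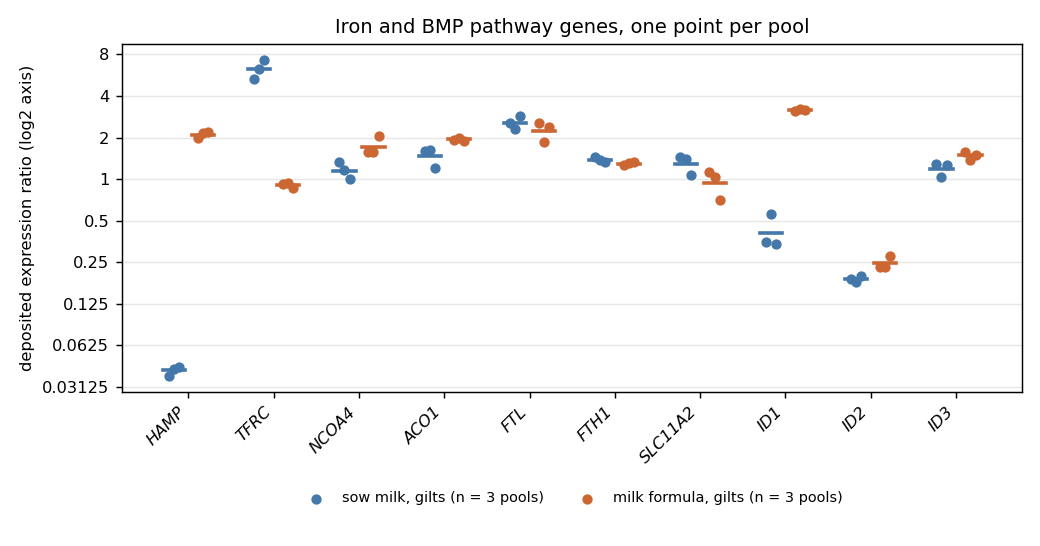
Deposited ratios of 10 iron and BMP pathway genes on a log2 axis, with 1 point per pool, blue for sow milk and orange for milk formula (3 pools each) and bars at the geometric means. HAMP, TFRC and ID1 separate widely by diet. FTL overlaps, while ACO1, FTH1, ID2 and ID3 separate by small differences. A ratio is relative to its own gene, so heights are compared within a gene only.

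Most of the cholesterol synthesis pathway rose on milk formula. Of 11 measured enzymes 9 rose, 0 fell and 2 were not called, against 0.931% of all genes called, and the median of the list was 2.76. Across the 15 alternatives run for the list, 8 or 9 members were called. The order below follows the pathway.

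ACAT2, which joins 2 acetyl-CoA units at the start of the pathway, rose by 3.07 (SE 0.19, adjusted p = 0.000195), and its other probe set rose by 3.11. HMGCS1, the cytosolic HMG-CoA synthase, had the largest difference of the list. Its ratio was 0.0656, 0.112 and 0.0363 on sow milk and 0.877, 1.85 and 1.17 on milk formula. Replicate 2 was the highest pool of each diet, and the lowest formula pool was still far above the highest suckled one. The rise was 4.26 (SE 0.39, adjusted p = 0.00227). FDPS, which builds the isoprenoid chain farnesyl pyrophosphate, was at 0.113, 0.144 and 0.115 against 0.982 to 1.41. The FDPS rise of 3.22 (SE 0.15) had the lowest adjusted p of the list, 7.28e-05.

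The steps that commit the chain to sterols followed. FDFT1, squalene synthase, rose by 1.82 (SE 0.16, adjusted p = 0.00191). SQLE, squalene epoxidase and a slow step of the pathway, had ratios of 0.138, 0.17 and 0.0931 on sow milk and 1.46, 2.30 and 1.64 on milk formula. The SQLE groups did not overlap and the rise was 3.77 (SE 0.23, adjusted p = 0.000203). CYP51, the lanosterol demethylase, rose by 3.35 (SE 0.21) from 0.203, 0.3 and 0.152 to 2.33, 2.08 and 2.05. MSMO1, a sterol methyl oxidase, rose by 2.76 (SE 0.27), with 1 of its other 2 probe sets also called at 2.48. SC5D, sterol desaturase, rose by 2.07 (SE 0.15). Sow milk replicate 3 was the lowest pool of all 6 for HMGCS1, SQLE, CYP51 and MSMO1.

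The smaller differences lay in the middle of the sterol steps. HSD17B7, a sterol ketone reductase, rose by 0.75 (SE 0.12, adjusted p = 0.0334), a call that was lost in every single-array omission but that of milk formula replicate 2 (0.68 to 0.79, adjusted p 0.0747 to 0.126). NSDHL, the sterol dehydrogenase before it, was at 0.853, 0.863 and 0.596 against 1.48, 1.23 and 1.10. These groups did not overlap, but the difference of 0.73 (SE 0.17) had adjusted p = 0.134. TM7SF2, a sterol reductase, differed by 0.38 (SE 0.18) and its groups overlapped.

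**Figure D3:**
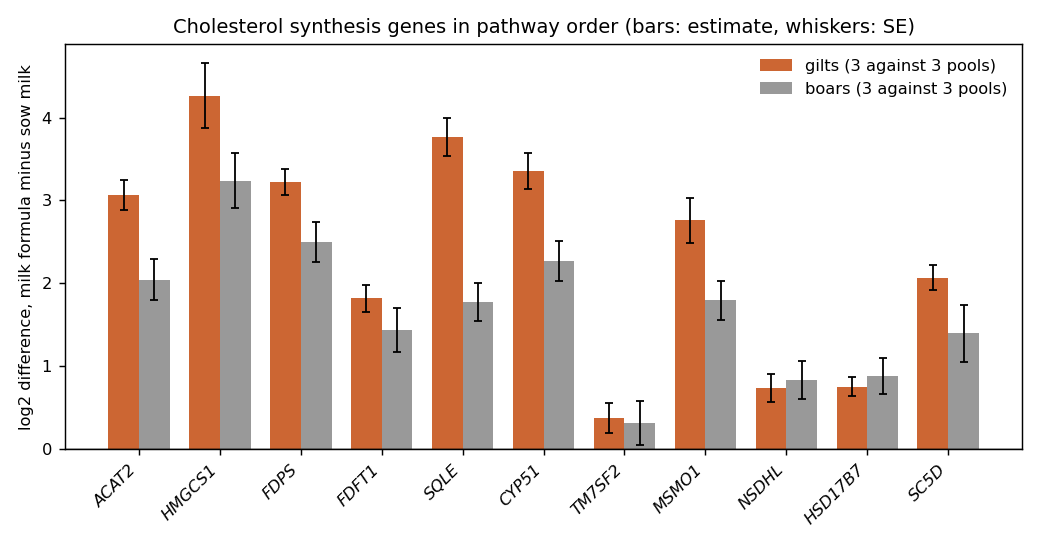
Log2 differences between milk formula and sow milk for 11 cholesterol synthesis genes in pathway order, with gilts in orange and boars in grey (bars are limma estimates, whiskers their SE, 3 pools per diet and sex). In gilts the bars run from 0.38 for TM7SF2 to 4.26 for HMGCS1, and every bar is above 0 in both sexes.

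Of 9 measured genes of sterol sensing and uptake only NPC1 was called, against 0.931% of all genes. NPC1, which lets cholesterol out of lysosomes, rose by 0.73 (SE 0.11, adjusted p = 0.0302), from 0.923, 1.05 and 0.988 to 1.52, 1.85 and 1.57. Its call held in 6 of 16 alternatives and was lost without milk formula replicate 2 or 3 or any 1 of the suckled pools (adjusted p 0.0590 to 0.103). SREBF2 differed by 0.77 (SE 0.15, adjusted p = 0.0787) in the probe set that stands for it, while 2 of its other 3 probe sets were called, at 0.79 and 0.92. INSIG1, a sterol sensor that holds SREBPs back, varied widely among suckled pools (0.554, 1.63 and 2.97) and lay at 2.35, 2.97 and 2.08 on milk formula. Its groups overlapped. SREBF1 differed by -0.02 (SE 0.21), and its sign turned when single pools were left out. The 7 measured LXR targets and sterol export genes held 0 called members at a median of -0.04, and so did the 16 lipoprotein genes at a median of -0.13. Lists of this size hold few calls or none at the 0.931% called over all genes.

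Lipogenesis and desaturation genes rose in part. Of 15 measured, 5 rose, 0 fell and 10 were not called, where 0.503% of all genes rose and 0.429% fell, and the median was 0.53. SCD, the enzyme that puts the first double bond into stearate, was at 0.188, 0.165 and 0.189 on sow milk and at 0.978, 1.23 and 1.68 on milk formula. The suckled pools were tight and the formula pools spread, with no overlap, and the rise was 2.81 (SE 0.18, adjusted p = 0.00022). FADS1, which desaturates polyunsaturated fatty acids, rose by 1.70 (SE 0.23, adjusted p = 0.0217). ACSS2, which makes acetyl-CoA from acetate, rose by 1.47 (SE 0.21, adjusted p = 0.0273), and its other probe set rose by 1.39 (adjusted p = 0.00162).

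PNPLA3, a lipase-like protein of lipid droplets, rose by 1.36 (SE 0.22, adjusted p = 0.0462). GPAM, the first enzyme of glycerolipid synthesis, rose by 1.01 (SE 0.15, adjusted p = 0.0304). FASN, the fatty acid synthase itself, was at 0.892, 0.992 and 0.782 against 1.09, 1.56 and 2.15. These groups did not overlap, but the difference of 0.80 (SE 0.22) had adjusted p = 0.217, and its other 3 probe sets lay between -0.05 and 0.39. ME1, which makes NADPH, and TKT, of the pentose phosphate pathway, differed by 0.53 and 0.63 and were not called.

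Which lipogenic genes were called depended on single pools and on the setting. On log2(ratio + 0.1) and with pool number as a replicate block the list held 1 called member. Without sow milk replicate 2 only SCD was left of this list, without sow milk replicate 1 or 3 there were 2 called members, and without milk formula replicate 3 there were 3. SCD was called under all 16 alternatives. ACSS2 was not past the threshold without milk formula replicate 1 or 3 or any 1 of the suckled pools (1.32 to 1.60, adjusted p up to 0.1001), FADS1 not without milk formula replicate 1 or 3 or sow milk replicate 2 (adjusted p up to 0.0721). GPAM and PNPLA3 were not past it without milk formula replicate 2 or any 1 of the suckled pools (adjusted p up to 0.124 and 0.199).

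MID1IP1, which encodes a protein that promotes the polymerisation of acetyl-CoA carboxylase, is on none of the lists but was among the largest rises. It was at 1.02, 1.09 and 0.979 on sow milk and at 5.29, 3.86 and 4.26 on milk formula. All formula pools were several-fold above all suckled pools, with a rise of 2.11 (SE 0.13, adjusted p = 0.000195) that was called under all 16 alternatives. CHKA, the choline kinase of phosphatidylcholine synthesis, rose by 1.12 (SE 0.10, adjusted p = 0.00227). FABP3, a fatty acid binding protein, rose by 0.89 (SE 0.13, adjusted p = 0.0304), and was lost without milk formula replicate 1 or 2 or sow milk replicate 2 or 3 (adjusted p 0.0673 to 0.1302).

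Lipid droplet and triglyceride genes moved both ways. Of 15 measured genes of glycerolipid synthesis and lipid droplets, GPAM rose, CIDEB fell and 13 were not called. The median was 0.01, and 0.931% of all genes were called. CIDEB, which acts in the lipidation of very low density lipoprotein, fell by 0.70 (SE 0.11, adjusted p = 0.0363), a call that held in 8 of 16 alternatives and was lost in every single-array omission but that of milk formula replicate 1 (adjusted p 0.0794 to 0.166). LPIN1, a phosphatidate phosphatase, differed by 0.76 (adjusted p = 0.0663) in the probe set that stands for it and was called in another at 0.99 (adjusted p = 0.0488). DGAT1, which completes triglyceride synthesis, was just outside the threshold at -0.59 (adjusted p = 0.050005, ratios of 1.62, 1.52 and 1.61 against 1.16, 0.954 and 1.05).

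Amino acid breakdown genes lay lower on milk formula, with few calls. Of 16 measured genes of the urea cycle and amino acid breakdown, 2 fell, 0 rose and 14 were not called. Over all genes 0.429% fell and 0.503% rose. In 11 of the 16 the formula pools were all below the suckled pools, where 9.71% of all genes did so (8.29% had them all above), and the median was -0.55. OAT, ornithine aminotransferase, was at 3.80, 4.17 and 8.14 on sow milk and at 1.06, 1.19 and 1.26 on milk formula. Sow milk replicate 3 stood highest, and the groups did not overlap. The difference was -2.12 (SE 0.25, adjusted p = 0.0113). CPS1, which forms carbamoyl phosphate from ammonia, was at 1.67, 2.33 and 2.46 against 1.05, 0.812 and 0.654, a difference of -1.37 (SE 0.20, adjusted p = 0.0276).

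Among those not called, ARG1, which releases urea, was at 1.27, 1.33 and 3.13 on sow milk and at 0.908, 0.658 and 1.18 on milk formula. SDS, serine dehydratase, was at 0.358, 0.994 and 2.10 against 0.293, 0.255 and 0.342. In ARG1 and SDS, as in OAT, sow milk replicate 3 was the highest pool, and their differences were -0.97 and -1.62 (adjusted p = 0.344 and adjusted p = 0.286). ASS1 differed by -0.70, ASL by -0.58, HPD by -0.76, TAT by -0.63 and FAH by -0.53, all with groups that did not overlap and none called. Without milk formula replicate 2 no member of the list was called (OAT adjusted p = 0.0534, CPS1 adjusted p = 0.103). CPS1 was also lost without milk formula replicate 3 or sow milk replicate 2 or 3 (adjusted p 0.0541 to 0.140), and SDS was called without sow milk replicate 1 (-2.29, adjusted p = 0.0279).

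GNMT, which uses surplus methyl groups of S-adenosylmethionine, was the 1 called of 16 genes of serine, glycine, methionine and one-carbon metabolism. Over all genes 0.931% were called. GNMT fell from 1.94, 2.02 and 1.91 to 1.11, 1.04 and 0.758 (-1.03, SE 0.14, adjusted p = 0.0215). The call was lost without milk formula replicate 2 or any 1 of the suckled pools (adjusted p 0.0616 to 0.117). CTH, the last enzyme of cysteine synthesis from methionine, was at 1.74, 2.50 and 4.17 against 1.32, 0.975 and 1.16 (-1.20, SE 0.28, adjusted p = 0.136). PSAT1 and PSPH, enzymes of serine synthesis, differed by 0.69 and 0.73 and were not called. Outside the list, ALDH7A1 of lysine breakdown fell from 3.004, 3.355 and 3.117 to 2.03, 1.36 and 1.55 (-0.96, adjusted p = 0.0319), and its other probe set fell by 0.79. The ALDH7A1 call was lost in every single-array omission but that of milk formula replicate 1 (adjusted p 0.0868 to 0.158). GSTZ1 of tyrosine breakdown fell by 0.69 (adjusted p = 0.0371), a call that was lost in all 6 omissions (adjusted p 0.0540 to 0.166), and its other probe set differed by -0.32 (adjusted p = 0.419).

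None of 17 genes of gluconeogenesis and glycogen and none of 17 of the insulin and growth hormone axis was called, against 0.931% of all genes. PCK1, the rate-limiting enzyme of gluconeogenesis, was at 2.90, 4.98 and 7.74 on sow milk and at 3.74, 1.82 and 1.10 on milk formula. Milk formula replicate 1 lay within the suckled range, and the difference of -1.30 (SE 0.45) had adjusted p = 0.336. IGFBP1, an insulin-repressed binding protein of insulin-like growth factors, was at 6.496, 6.354 and 5.33 against 3.42, 2.48 and 0.545. The IGFBP1 groups did not overlap, but the formula pools spread widely and -1.86 (SE 0.56) had adjusted p = 0.26. Without milk formula replicate 3, its lowest pool, IGFBP1 was called at -1.05 (adjusted p = 0.0486). PPP1R3B, which targets a phosphatase to glycogen, was at 0.865, 1.14 and 0.384 against 3.12, 2.15 and 3.53 (1.99, SE 0.36, adjusted p = 0.0652). IGF1 differed by -0.34 with overlapping groups. CPT1A, the gate to fatty acid oxidation in mitochondria, differed by 0.40 (adjusted p = 0.21), and 0 of 23 genes of fatty acid oxidation and ketogenesis were called. Lists of this size hold few calls or none at the 0.931% called over all genes.

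Enzymes that conjugate or oxidise foreign compounds changed singly. CYP1A1, the target of the aryl hydrocarbon receptor, was the 1 called of 19 measured P450s and their receptors, against 0.931% of all genes. It was at 0.644, 0.889 and 0.568 on sow milk and at 1.73, 1.65 and 2.19 on milk formula, a rise of 1.42 (SE 0.18, adjusted p = 0.0124) with no overlap, and was lost without sow milk replicate 1 (adjusted p = 0.0612). CYP3A29 differed by 1.46 (adjusted p = 0.0783) and was called without sow milk replicate 3 (1.79, adjusted p = 0.0122). Of 26 conjugation and glutathione genes 2 fell and 0 rose, where 0.429% of all genes fell and 0.503% rose. The median of these 26 was 0.09. SULT2A1, which sulfates bile acids and steroids, fell from 2.21, 1.92 and 1.95 to 1.069, 1.096 and 1.002 (-0.94, SE 0.10, adjusted p = 0.00459) and was called under all 16 alternatives. GSTM3, a glutathione transferase, fell by 1.54 (SE 0.19, adjusted p = 0.0128), which was not called without sow milk replicate 2 (adjusted p = 0.0793). PAPSS2, which makes the sulfate donor that SULT2A1 uses, fell by 1.13 (SE 0.15, adjusted p = 0.0175), and was lost without milk formula replicate 2 or sow milk replicate 1 or 2 (adjusted p 0.0749 to 0.104).

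MT1A, a metal-binding metallothionein, was the 1 called of 10 genes of metallothioneins, zinc and copper, against 0.931% of all genes. It rose from 1.36, 0.872 and 1.13 to 2.18, 2.47 and 2.21 (1.05, SE 0.15, adjusted p = 0.0304). The MT1A call was lost without any 1 of the formula pools or sow milk replicate 2 or 3 (0.88 to 1.08, adjusted p 0.0544 to 0.109). MT3, a near relative whose probes could share signal with it, was at 2.84, 1.15 and 2.76 against 4.99, 8.88 and 1.65 with overlap. CYP7A1, the rate-limiting enzyme of bile acid synthesis, was at 0.312, 0.203 and 0.17 against 0.650, 1.38 and 0.279. Its groups overlapped (1.51, SE 0.49, adjusted p = 0.293), and 0 of 9 bile acid genes were called, where 0.931% of all genes were.

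Of 16 acute-phase proteins CRP rose, ORM1 fell and 14 were not called, where 0.931% of all genes were called. The median was -0.21, and 7 had formula pools all below the suckled pools, as 9.71% of all genes did. CRP, C-reactive protein, was at 0.320, 0.320 and 0.620 on sow milk and at 2.76, 3.91 and 1.27 on milk formula. The formula pools were spread but did not overlap the suckled ones, and the rise was 2.59 (SE 0.40, adjusted p = 0.0334). The related pentraxin APCS, serum amyloid P, is not on the list and was at 0.319, 0.413 and 0.567 against 2.18, 3.01 and 3.06. It rose by 2.69 (SE 0.21, adjusted p = 0.000905) and was called under all 16 alternatives. ORM1, orosomucoid, fell by 0.76 (SE 0.11, adjusted p = 0.0314), and its other 2 probe sets, at -0.03 and 0.35, were not called.

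CRP was not past the threshold without milk formula replicate 1 or 2 or sow milk replicate 1 or 2 (2.23 to 2.48, adjusted p 0.0782 to 0.166), and ORM1 not without any 1 of the formula pools or sow milk replicate 1 or 2 (adjusted p 0.0640 to 0.149). None of 20 complement genes and none of 15 coagulation genes was called, at medians of -0.23 and -0.27, where 0.931% of all genes were called. The liver plasma proteins AGT, angiotensinogen, and PGLYRP2, a secreted enzyme that cleaves bacterial peptidoglycan, fell by 0.88 (adjusted p = 0.0116) and 0.84 (adjusted p = 0.0134), and both were lost without sow milk replicate 1 or 2 (adjusted p up to 0.0737 and 0.0765). CXCL14, a chemokine, was the 1 called of 31 genes of inflammatory signalling and chemokines, against 0.931% of all genes. CXCL14 was at 0.702, 0.714 and 0.896 on sow milk and at 0.222, 0.189 and 0.213 on milk formula, a tight and separate group, with a difference of -1.88 (SE 0.12, adjusted p = 0.000228). Its other probe set fell by 1.77, and the call held under all 16 alternatives.

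**Figure D4:**
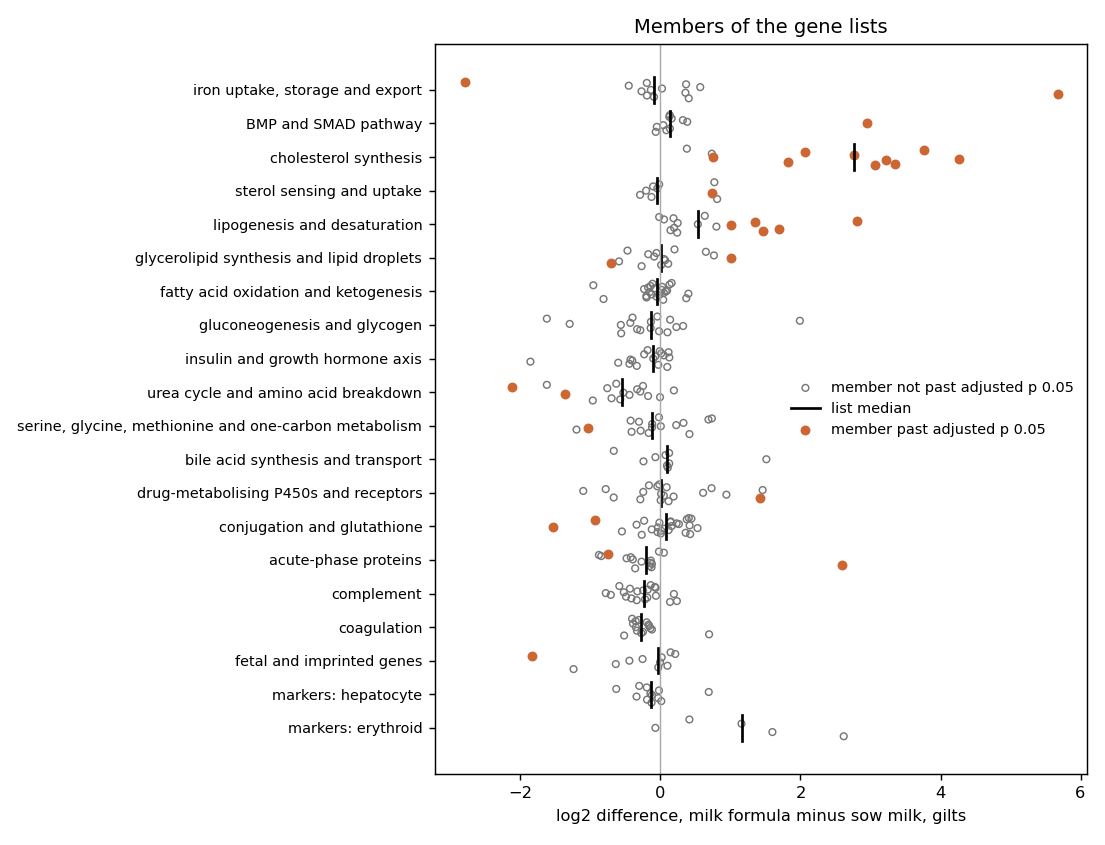
Log2 differences between milk formula and sow milk in gilts for the measured members of the gene lists named on the y axis, with filled points for members past adjusted p 0.05, open points for the others and a bar at each list's median. Cholesterol synthesis stands at a median of 2.76 with 9 of 11 members filled. Erythroid markers lie at 1.16, lipogenesis and desaturation at 0.53 and the urea cycle list at -0.55, while most other lists have medians near 0.

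Fetal and imprinted genes gave 1 call among 11, against 0.931% of all genes. PEG10, an imprinted gene of retroviral origin, was at 4.99, 3.86 and 2.64 on sow milk and at 1.16, 0.834 and 1.16 on milk formula (-1.83, SE 0.23, adjusted p = 0.0123). Of its other 2 probe sets 1 differed by -1.32 (adjusted p = 0.0609), and the PEG10 call was lost without sow milk replicate 2 or milk formula replicate 2 (adjusted p = 0.0793 and adjusted p = 0.0534). AFP, alpha-fetoprotein, was at 2.47, 4.56 and 2.61 against 4.24, 0.808 and 0.648. Milk formula replicate 1 lay among the suckled pools, so the difference of -1.24 (SE 0.62) had adjusted p = 0.559. Without that pool AFP was called at -2.09 (adjusted p = 0.0194). PHLDA2, an imprinted growth suppressor that is not on the list, rose by 1.41 (SE 0.17, adjusted p = 0.0123), and was lost without sow milk replicate 1 or 2 (adjusted p up to 0.0589).

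CDKN1A, the cell cycle inhibitor p21, was the 1 called of 30 cell cycle genes, against 0.931% of all genes. It rose from 0.762, 1.08 and 0.646 to 1.72, 1.99 and 2.40 (1.32, SE 0.19, adjusted p = 0.0302), and was lost without milk formula replicate 2 or 3 or sow milk replicate 1 or 3 (adjusted p 0.0694 to 0.103). The proliferation gene RRM2 was at 1.95, 2.47 and 2.47 against 2.25, 1.05 and 2.21 and was not called. The median of the cell cycle list was 0.0034.

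Of the 63 called genes, 31 stood in at least 1 list and 32 in none. Among those in none not yet given, the rises were CKB, the brain type creatine kinase, by 1.63 (adjusted p = 0.0169), MAOA, which oxidises monoamines, by 0.90 (adjusted p = 0.0101), RNF113A by 0.87, RAB9A of late endosome transport by 0.71, KCNB2, a potassium channel, by 0.58, ARMCX3 by 0.58 and BNIP3L, a receptor for the removal of mitochondria, by 0.56. EF1ALPHA, a translation elongation factor, rose by 1.39 in 1 of its 7 probe sets, and the other 6 were not called. The falls were BEX3 by 1.36 (adjusted p = 0.00379), LOC100153094 by 1.38, TM4SF1 by 1.28, TMEM100 by 1.23, ANKFY1 by 1.08, SLC25A48 by 1.07, FXYD7 by 0.99, BPHL by 0.89, NYNRIN by 0.83, GUSB, a lysosomal glucuronidase, by 0.80, NLN, a peptidase, by 0.70, HOMER2 by 0.66 and FAIM by 0.64. TM4SF1 was called in both of its probe sets, at -1.28 and -1.45. Of these genes ARMCX3, BNIP3L, KCNB2, HOMER2 and FAIM were lost in all 6 single-array omissions, RNF113A and NLN in 5, RAB9A, EF1ALPHA and GUSB in 4, CKB, TMEM100, ANKFY1 and SLC25A48 in 3, FXYD7 in 2, and LOC100153094, TM4SF1 and NYNRIN in 1. The omission of sow milk replicate 2 was among them for each of these but TMEM100, which was lost without milk formula replicate 2 or 3 or sow milk replicate 1.

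Where a called gene had several probe sets they did not always move together. Of 21 such genes 6 were called in every probe set and 13 in the representative one alone, among them BEX3, BPHL, NLN and PEG10. A further 5 genes were called in a probe set that does not stand for the gene: SREBF2, LPIN1, EPB41 of the red cell membrane skeleton (0.89), CLPB (0.78) and ABHD14B (-0.90). Of the 120 called probe sets 42 carry no gene symbol in the annotation used here. The largest rise among these was 3.89 and the largest fall -2.61, and the probe set with that fall was at 5.03, 5.13 and 6.58 on sow milk and at 0.771, 1.02 and 0.939 on milk formula.

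Which genes passed the threshold depended on the pools entered. A call of the full comparison survived all alternatives in 27 probe sets and 16 genes: HAMP, TFRC and ID1, the sterol enzymes ACAT2, FDPS, FDFT1, SQLE, CYP51, MSMO1 and SC5D, and SCD, MID1IP1, APCS, CXCL14, BEX3 and SULT2A1. HMGCS1 held in 15 of 16. The count of called probe sets was 46 without sow milk replicate 2, 66 without milk formula replicate 2, 72 without sow milk replicate 1 and 77 without sow milk replicate 3. It was 87 and 139 without milk formula replicates 3 and 1. Of the 63 genes, between 16 (without milk formula replicate 1) and 39 (without sow milk replicate 2) were no longer called, and 0 changed sign under any alternative.

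Cell type markers did not give a call in any of 10 lists, where 0.931% of all genes were called. Lists of 2 to 12 measured genes hold few calls or none at that share. Markers of T and NK cells, B and plasma cells and neutrophils had low ratios, with means per suckled pool of -2.57 to -1.98 on the log2 scale. A change in those cells may therefore be missed. Of 12 hepatocyte markers 6 had formula pools all below the suckled pools and 1, HNF4A, all above, against 9.71% and 8.29% of all genes, and their median was -0.14. ALB was at 1.06, 1.06 and 1.04 on sow milk and at 1.06, 1.07 and 1.06 on milk formula. The ratios of the 12 markers summed to between 15.9 and 17.0 on sow milk and between 14.5 and 15.2 on milk formula. Such a sum adds probe sets whose divisors are not given, so it leans on those with high ratios and is no measure of cell number. The part of hepatocyte content in the falls of plasma protein and amino acid genes was not tested.

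Erythroid markers lay higher on milk formula in 4 of 5 measured genes, with 0 called and a median of 1.16. AHSP, the chaperone of alpha-globin, was at 0.244, 0.346 and 0.828 against 2.22, 1.11 and 6.56 (2.62, SE 0.62, adjusted p = 0.151). ALAS2, the heme enzyme of red cell precursors, was at 0.498, 0.830 and 0.837 against 1.52, 1.15 and 5.49. Milk formula replicate 3 was the highest pool in both. HBB was at 0.385, 0.522 and 0.478 against 0.507, 0.357 and 0.456 and overlapped. The summed ratio of the 5 markers was 2.10 to 3.48 on sow milk and 6.27, 3.89 and 17.0 on the formula pools. The median without milk formula replicate 3 was 0.60, and the part of these cells in the rises of EPB41 and BNIP3L, which red cell precursors also make, was not tested. Over the omissions of single pools the difference ran from 5.61 to 5.72 for HAMP, -2.91 to -2.69 for TFRC and 2.83 to 3.19 for ID1. These omissions do not test the part of erythroid cells in those differences. Without milk formula replicate 3 the other formula pools, at 6.27 and 3.89, still had higher marker sums than the suckled pools.

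The same diets in boars share no array with the gilts. Boar arrays carried added control transcripts at a higher level, with a geometric mean ratio of 1.48 to 2.82 against 0.254 to 0.496 in gilts, and had a residual SD of 0.302 against 0.134. Of the 120 probe sets called in gilts 105 had the same sign in boars (87.5%, against 54.4% of all probe sets). They were 64 of the 71 higher and 41 of the 49 lower ones. In 54 the boar groups also did not overlap in that direction, where 11% of all probe sets had groups without overlap. In boars fitted alone 22 probe sets were called (0.0919%), and 15 of them were also called in gilts, all with the same sign.

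HAMP rose in boars as well. It was at 0.0587, 0.0857 and 0.0344 on sow milk and at 1.82, 0.643 and 1.01 on milk formula, a rise of 4.24 (SE 0.40, adjusted p = 0.00594). TFRC was at -2.14 in boars (adjusted p = 0.0678) and ID1 at 1.66 (adjusted p = 0.111). All 11 cholesterol synthesis genes were above 0 in boars, 6 were called there, and the median was 1.78 against 2.76 in gilts. SCD rose by 2.50 in boars and FADS1 by 1.67.

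The change in gilts was larger in size than that in boars in 109 of the 120 probe sets, a comparison that favours gilts because the probe sets were called there. The test of the difference itself called 0 of 23935 probe sets in limma (0%), and 1418 had an unadjusted p under 0.05 (5.92%). In simulated data with 200 differences planted among 23935 probe sets, this test recovered 96% of 4-fold and 22% of 2-fold differences. The noise there was independent and drawn from moderated variances, and the planted differences eased the adjustment of p. Those shares therefore do not carry over to the measured data, where SQLE went uncalled at a difference of 1.99. APCS differed most among the called genes. It was at 0.506, 0.337 and 0.514 on sow milk and at 0.632, 0.462 and 0.617 on milk formula in boars, so its boar groups overlapped, and the gilt difference exceeded the boar one by 2.34 (95% interval 1.62 to 3.07, adjusted p = 0.115). Over the alternatives its adjusted p ran from 0.0234 to 0.476.

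SQLE followed, with 1.99 more in gilts (1.27 to 2.70), then MID1IP1 with 1.88 (1.003 to 2.763), PHLDA2 with 1.65 (0.42 to 2.88) and HAMP with 1.43 (0.40 to 2.46). In the other direction lay ANKFY1, which fell in gilts but was 0.89 higher in boars (difference -1.96, -2.81 to -1.12), and OAT, at -0.31 in boars (difference -1.80, -2.609 to -1.001). LOC100153094 (-1.64, -2.44 to -0.83), GSTM3 (-1.28, -2.06 to -0.51) and TMEM100 (-1.14, -1.74 to -0.55) were on the same side; they fell in gilts and were at 0.26, -0.26 and -0.09 in boars, none called there. None of these differences passed the adjusted threshold, and the intervals are those of single genes, chosen for their size and unadjusted. The array differences between the sexes and the sex of the piglets cannot be told apart here.

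**Figure D5:**
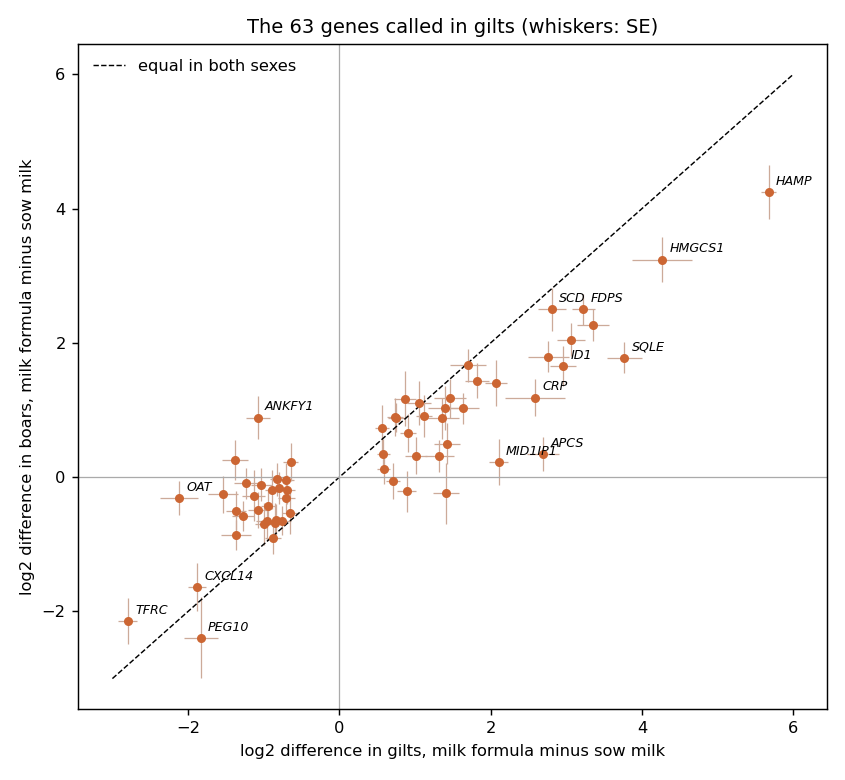
Log2 differences between milk formula and sow milk for the 63 genes called in gilts, in gilts on the x axis and in boars on the y axis, with SE as whiskers (3 pools per diet and sex). Of the 63 genes 57 have the same sign in both sexes, and APCS, SQLE, ANKFY1 and MID1IP1 lie farthest from the dashed line of equal change.

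The milk formula pools were also compared directly with the 3 soy formula pools of gilts. This comparison called 338 of 23935 probe sets (1.41%) and 164 genes (2.42%), with 114 probe sets higher and 224 lower on milk than on soy formula (157 and 187 after quantile scaling). It shares the milk formula pools with the main comparison, so the values are set side by side. HAMP was at 0.993, 0.820 and 1.01 on soy formula, below the 3 milk formula pools but far above the suckled ones, a difference of 1.16 (SE 0.11, adjusted p = 0.0115). ID1 was at 1.45, 1.69 and 1.54 on soy formula and was 1.02 higher on milk formula (SE 0.09, adjusted p = 0.0115). TFRC was at 1.12, 0.728 and 1.12 on soy formula, overlapping the milk formula pools (-0.10, SE 0.17).

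MT1A differed most firmly, at 0.475, 0.567 and 0.695 on soy formula, and was 1.99 higher on milk formula (SE 0.14, adjusted p = 0.00407). MT3 was 3.35 higher (adjusted p = 0.0321) and ID3 0.66 higher (adjusted p = 0.0246). CYP7A1 was at 9.81, 13.7 and 14.5 on soy formula and 4.31 lower on milk formula (SE 0.49, adjusted p = 0.0207). CYP3A29 was 1.67 lower (-1.67, adjusted p = 0.0115), ARG1 1.59 lower (-1.59, adjusted p = 0.0239), PNPLA3 -1.46 (adjusted p = 0.049) and NPC1 -1.36 (adjusted p = 0.0414).

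The cholesterol synthesis genes were also higher on soy formula than on milk formula. All 11 were below 0 in this comparison and 4 were called: ACAT2, CYP51, MSMO1 and SC5D, by -0.75 to -1.002. HMGCS1 was at 2.60, 6.34 and 3.55 on soy formula (-1.65, SE 0.35, adjusted p = 0.0689). MID1IP1 was at 2.57, 1.08 and 1.41 on soy formula, all below the milk formula pools, at a difference of 1.49 (adjusted p = 0.0513). OAT, at 1.04, 0.852 and 0.870, differed by 0.35 (SE 0.11, adjusted p = 0.18). This comparison rested heavily on single pools. It called 3 probe sets without milk formula replicate 2, 10 without soy formula replicate 2, 30 without soy formula replicate 3, 96 without milk formula replicate 1 and 137 without soy formula replicate 1. Of 14 alternatives, MT1A and CYP3A29 were past the threshold in 13, and HAMP, ID1 and CYP7A1 in 12. ARG1 and SC5D were past it in 9, ID3 in 8 and MT3 in 7. ACAT2, MSMO1, NPC1 and PNPLA3 were past it in 6 and CYP51 in 5, so 3 of the 4 cholesterol synthesis calls were lost in most alternatives.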

How the data were processed

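Liver RNA pools were hybridised to porcine Affymetrix arrays (8 ug of RNA each, per the labels). For each array the authors deposited linear expression ratios, 1 for every probe set. The submitters' processing notes name GCOS and RMA, and versions, annotation build and the ratio's divisor are not given there. A divisor common to all arrays cancels between arrays, so ratios were compared within a gene. All 12 hepatocyte markers and 10 of the 11 cholesterol synthesis genes had a median ratio of 1 over the 18 arrays. All 18 columns were matched to samples by title, with 0 left over.

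Log2 was taken of the ratios, and 188 control probe sets were set aside. Of 23935 tested probe sets 10069 name 1 gene, 198 several and 13668 none. Where a gene has several probe sets the one highest on average over all arrays was read, and no filter on low values was used. limma 3.58.1 (R 4.3.3) fitted the 6 arrays with 1 mean per diet, moderated variances (prior degrees of freedom 4.71) and Benjamini-Hochberg adjustment over all tested probe sets. The boars, the gilt minus boar contrast (12 arrays) and milk against soy formula were fitted likewise. Lists (34 pathways, 10 marker sets, 592 genes measured) are described by counts and medians.

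Members and lists were chosen with earlier results of these data known. Genes named were the 15 largest called rises and falls, up to 5 called and 3 uncalled members of each list with a call, 18 measured of 23 fixed genes, and up to 5 each way for the other contrasts. Another 72 genes, 23 of them called, were named after their values were seen. The fit was tested on simulated data with 200 planted changes and independent noise. For this comparison it recovered 98% of 2-fold and 70% of 1.5-fold changes, with 7.07% false calls. The labels name no pairing of pools by number. Residual correlations were -0.13, -0.07 and -0.08 for same-numbered pools and -0.04 to 0.12 for differently numbered ones. With 3 pools per diet the residuals depend on each other, so these values cannot show whether pools were paired. Alternatives were trended variances, quantile or median scaling, log2(ratio + 0.1), omission of the 40% dimmest probe sets, array weights and more arrays in the fit. Others were the pool number as a block, omission of each array and, for single genes, the mean over all their probe sets. That made up to 16 per gene in the main comparison. The settings of 1 probe set per gene and a 1.5-fold limit were read for counts of calls only. Plots were drawn with Python 3.11.15, pandas 2.3.3 and matplotlib 3.10.9.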

Additional observations from a re-analysis of the deposited data

How the results depend on the processing

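The count of 120 called probe sets was 55 on log2(ratio + 0.1), 73 with pool number as a replicate block, 77 with all 18 arrays in the fit, and 46 to 139 without single arrays. It was within 1.5 times of 120 with quantile (111) or median scaling (122), trended variances (180), the dimmest probe sets left out (160), array weights (125), the 9 gilt arrays (177) or a 1.5-fold limit (115). Fitted on 1 probe set per gene, with p adjusted over those 6765 genes alone, 73 genes were called, against 63 in the fit of all probe sets. Pool numbers pair nothing in the labels, so the block is an alternative only. The 0 calls of the gilt minus boar contrast became 1 with all 18 arrays, 1 with 1 probe set per gene and 0 to 2 without single arrays (2 without male or female sow milk replicate 3). The 338 calls against soy formula became 176 on log2(ratio + 0.1), 58 with all 18 arrays and 3 to 288 without single arrays. A pair of uncalled genes turned sign without single arrays: SREBF1, which ran from -0.18 to 0.21 (0.04 to 0.21 without milk formula replicate 1, at 0.08, or replicate 2, or sow milk replicate 2), and HBB, which ran from -0.20 to 0.070 (above 0 without milk formula replicate 2 or, at 0.02, sow milk replicate 2). The causes were not tested. In simulated data with 3 pools per diet, changes under 2-fold were recovered only in part. That simulation drew independent noise for each array. Larger differences also went uncalled in the measured data where pools spread widely, such as 2.62 for AHSP and -1.86 for IGFBP1.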
